A study of Mus musculus with 4 samples.

Results

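The 10 genes studied here are ones that neutrophils use to fill their granules, to make calprotectin and to answer the signals that call them into tissue, and their RNA was measured in the inflamed mouse colon. They are S100a8, S100a9, Ltf, Camp, Ngp, Lcn2, Mmp8, Mmp9, Cxcr2 and Csf3r, and they were taken as every spot outside the control spots whose gene name on the array was one of these symbols. The 10 genes had 12 probes, of 37074 gene names and 56605 probes on the array, and 7 of the 10 passed the filter on dim probes (19325 genes in all). The mutant mice were Junb fl/fl Cd4-Cre, with floxed Junb alleles and a Cre recombinase driven by Cd4 sequences, which acts in cells of the T cell lineage. The control mice were Junb fl/fl, with the same floxed alleles and no Cre. All were C57BL/6 mice that had drunk dextran sulphate sodium (DSS), a polymer that injures the colon epithelium, and whole colon was collected on day 5. There were 2 arrays per genotype, and no group without DSS was analysed here.

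Calprotectin is a pair of small calcium-binding proteins, S100A8 and S100A9, which fill the cytosol of neutrophils and hold zinc and manganese away from microbes. Lactoferrin, cathelicidin, neutrophilic granule protein and lipocalin 2 are packed into the secondary granules while the cell matures in the bone marrow, and the metalloproteinases MMP8 and MMP9 into secondary and tertiary ones. CXCR2 binds chemokines that draw neutrophils out of the blood, and the receptor for granulocyte colony-stimulating factor, CSF3R, drives their production. Several of these genes have other sources: Lcn2 and calprotectin are also made by inflamed epithelium, Ltf by glandular epithelium, and Mmp9 by macrophages. The comparison between genotypes belongs to a study of why DSS colitis is more severe when Junb is deleted in T cells.

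Signal is the background-corrected brightness of a spot as deposited, in arbitrary units, and depends on the probe as well as on the transcript. For the tests each array was put on the log2 scale with its 75th percentile at 0, and a difference is mutant minus control on that scale. An array had 27939 to 29093 probes well above its background, all 4 arrays shared a slide and a scan, and array pairs had Pearson's r between 0.976 and 0.984 across genes. The targeted gene, Junb, gave 6737 and 5940 in the mutants against 6186 and 6870 in the controls, as read by a probe with a run of bases found near the starts of 29 other genes. That probe was the brighter of 2 Junb probes that passed the filter. The other Junb probes on the array had no such run near the start of another gene, and their values are not given here. On the normalised scale both mutants lay above both controls for Junb, at 4.44 and 4.47 in the mutants against 4.23 and 4.39 in the controls, a difference of 0.15 ± 0.11 (limma adjusted p = 0.691). Whole colon is no check of a deletion in T cells. The labels do not state sex. Xist, expressed from the inactive X chromosome, was well above background on the replicate 1 array of each genotype and on neither replicate 2 array, and the Y-linked gene Eif2s3y showed the reverse, so replicate 1 was female and replicate 2 male in both genotypes. In RNA of whole colon, fewer cells of a type and less RNA per cell cannot be told apart.

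Both calprotectin genes were brighter in the mutant colons. S100a8, whose product is the smaller calprotectin chain, gave signals of 676 and 2296.5 in mutant replicates 1 and 2, against 179 and 504 in control replicates 1 and 2. The groups did not overlap on the normalised scale, but the lower mutant lay close above the higher control. The fitted S100a8 difference was 2.24 ± 0.78 (log2, SE, n = 2 and 2), or 4.73-fold, and did not pass the limma test over all genes (adjusted p = 0.506). S100a9, the partner chain, gave 2051 and 6638 in the mutants against 440.1 and 1796 in the controls. It had the same order of arrays and the same size of difference, 2.24 ± 0.88, or 4.73-fold (limma adjusted p = 0.537). The 2 genes lie near each other on chromosome 3, with probes at 90473778 to 90473837 for S100a8 and 90496573 to 90496632 for S100a9 (mm9).

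**Figure D1:**
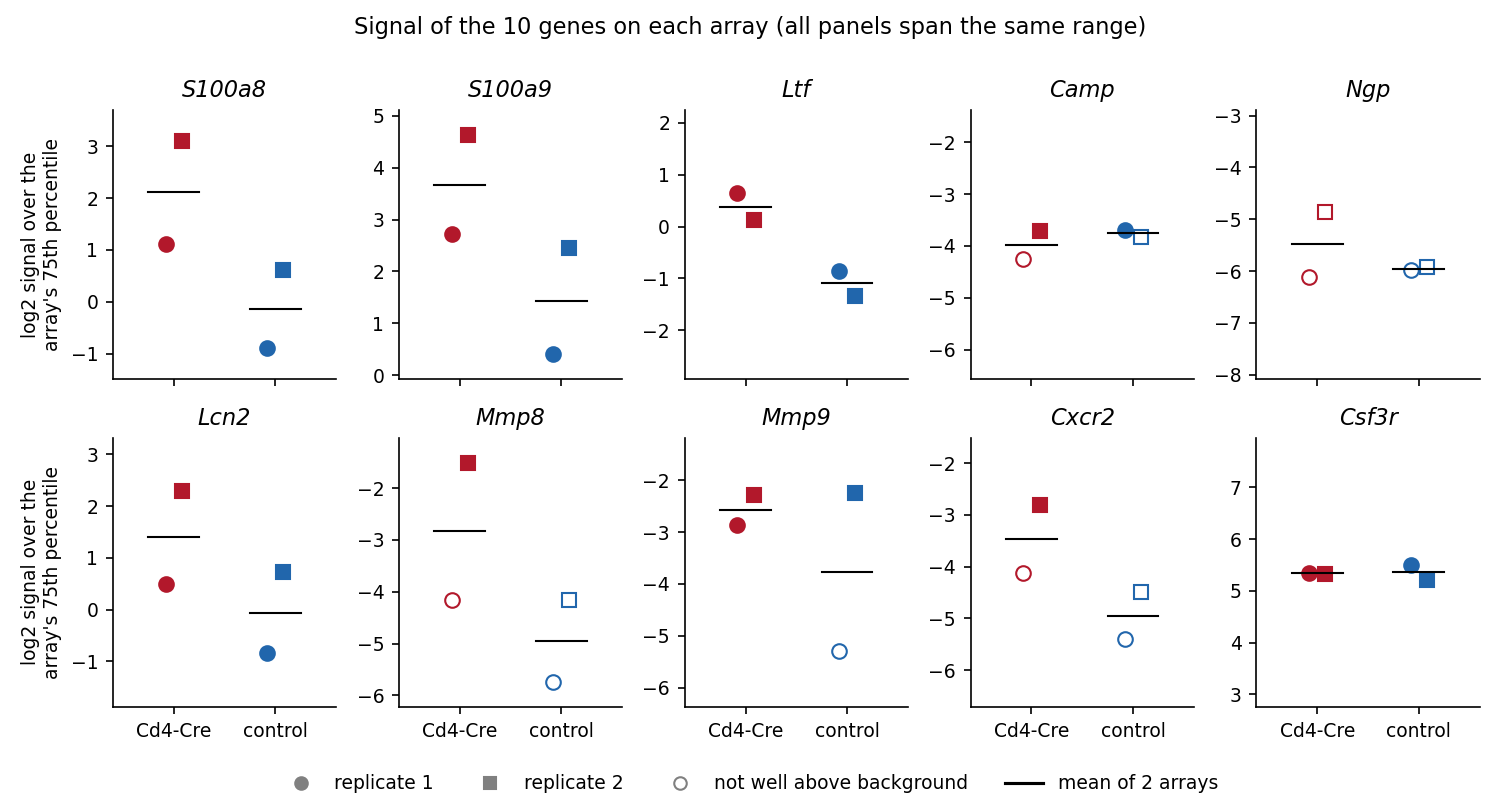
Signal of the 10 genes on each of the 4 arrays, on the log2 scale with the array's 75th percentile at 0, mutants (Cd4-Cre, red) on the left and controls (blue) on the right, circles for replicate 1, squares for replicate 2, open symbols for spots not well above background and bars for the mean of 2 arrays. S100a8, S100a9 and Lcn2 are highest on mutant replicate 2 and lowest on control replicate 1, Ltf separates the genotypes with replicate 2 lower in each, and Csf3r lies between 5.22 and 5.50 on all 4 arrays.

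The 250 bases before the annotated start of each gene were read from RefSeq (GRCm38.p6) and searched on both strands for motifs of factors that act in granulocytes and in inflammation, and those of the 4 genes whose call depends on the model (below) are shown. Capitals mark matches to TTGCNNAA (C/EBP), GAGGAA (PU.1), TGANTCA (AP-1) or the NF-kappaB motif (GGG and CC with any 5 bases between), and each sequence runs 5′ to 3′ towards its gene. The S100a8 window is chr3:90668821-90669070, plus strand, and that of S100a9 is chr3:90695722-90695971, minus strand.
S100a8: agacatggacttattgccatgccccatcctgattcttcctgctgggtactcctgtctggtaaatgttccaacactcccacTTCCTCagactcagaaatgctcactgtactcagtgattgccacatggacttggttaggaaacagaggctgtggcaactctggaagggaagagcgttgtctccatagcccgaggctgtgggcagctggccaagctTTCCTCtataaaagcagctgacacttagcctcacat
S100a9: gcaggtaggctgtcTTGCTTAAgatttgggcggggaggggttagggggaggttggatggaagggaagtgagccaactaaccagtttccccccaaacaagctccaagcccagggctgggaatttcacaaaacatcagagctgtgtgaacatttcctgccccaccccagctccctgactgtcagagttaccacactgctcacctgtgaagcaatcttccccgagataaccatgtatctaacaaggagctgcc
The S100a8 window held the PU.1 letters 2 times, starting 170 and 36 bases before the start, and the S100a9 window held the C/EBP letters 236 bases before it. A match shows letters and not binding.

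Among the granule proteins, Ltf separated the genotypes most evenly. Ltf encodes lactoferrin, which binds iron, and gave 488 and 292 in the mutants against 183 and 130 in the controls. Both mutants were above both controls, and unlike calprotectin the replicate 2 array was the lower one in each genotype. The difference was 1.48 ± 0.26, or 2.79-fold, and it too did not pass over all genes (limma adjusted p = 0.418). Lcn2 encodes lipocalin 2, which binds the siderophores that bacteria use to take up iron. Its brighter probe gave 439 and 1310 in the mutants against 184 and 545 in the controls, so control replicate 2 lay above mutant replicate 1 and the groups overlapped. The second Lcn2 probe, at 78.6 and 242 in the mutants against 35.1 and 103 in the controls, had the same order. The Lcn2 difference was 1.45 ± 0.75 with the first probe (2.73-fold, limma adjusted p = 0.605) and 1.39 with the second.

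The windows before Ltf and Lcn2 are set out as above, Ltf at chr9:111019042-111019291, plus strand, and Lcn2 at chr2:32387740-32387989, minus strand.
Ltf: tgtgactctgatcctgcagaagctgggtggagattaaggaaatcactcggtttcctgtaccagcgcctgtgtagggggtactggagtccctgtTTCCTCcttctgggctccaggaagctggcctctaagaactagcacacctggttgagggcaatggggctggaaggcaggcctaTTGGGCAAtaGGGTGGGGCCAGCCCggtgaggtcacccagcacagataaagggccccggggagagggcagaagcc
Lcn2: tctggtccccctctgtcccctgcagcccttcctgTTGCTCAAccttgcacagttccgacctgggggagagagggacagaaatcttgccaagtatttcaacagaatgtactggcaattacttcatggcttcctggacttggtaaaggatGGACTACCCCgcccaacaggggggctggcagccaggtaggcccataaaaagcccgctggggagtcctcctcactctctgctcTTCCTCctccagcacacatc
Both windows held the C/EBP, PU.1 and NF-kappaB letters. In Ltf the 4 NF-kappaB matches overlap in 1 GC-rich block that starts 65 bases before the gene, next to the C/EBP match at 75 bases. Windows were found for 9 of the 10 genes. The C/EBP letters were in 5 of those 9 (Lcn2, Ltf, Mmp8, Ngp and S100a9) and in 9.56% of 32851 windows of that length, the PU.1 letters in 6 of 9 and in 23.3%. The NF-kappaB letters were in 4 of 9 and in 45.8%, and the AP-1 letters in none of the 9 and in 6.75%. Of these genes Ngp, with the C/EBP letters 2 times, had no array well above background, and S100a8 had no C/EBP letters in its window.

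The remaining granule proteins gave little signal. Camp encodes the cathelicidin from which an antimicrobial peptide is cut, and gave 16.4 and 20.4 in the mutants against 25.5 and 23.2 in the controls. Only 1 mutant and 1 control array were well above background for Camp, the groups overlapped on the normalised scale, and the difference was -0.22 ± 0.35 (limma adjusted p = 0.865). It was 0.08 with normexp background correction and 0.04 without mutant replicate 1. Ngp, a cystatin-related granule protein, gave 4.47 and 9.31 in the mutants against 5.23 and 5.43 in the controls, none of them well above background, so no fold is given. Camp and Ngp are transcribed mainly in immature cells of the marrow, and whether this bears on their low signal was not tested. Ltf, of the same secondary granules, was well above background on all 4 arrays.

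The metalloproteinases differed from one another. Mmp8 encodes neutrophil collagenase and gave 17.4 and 94.2 in the mutants against 6.17 and 18.3 in the controls. Only mutant replicate 2 was well above background for Mmp8. Mutant replicate 1 and both controls therefore have no order for Mmp8. The mutant mean lay 2.21-fold above the lowest signals called well above background on the control arrays. This bound sets the mean of the mutants against the mean, per control array, of the lowest signal called well above background or the probe's own signal, whichever is higher. For Mmp8 it takes mutant replicate 1 at a reading not well above background. The 2.21 therefore rests on mutant replicate 2 and is no strict lower limit, and the gene was not tested. A spot brighter than that lowest signal can still be called not well above background. On control replicate 2 the lowest signal was 21.0, and Camp at 23.2 was not well above background. Mmp9 encodes gelatinase B, and its first probe gave 42.7 and 55.1 in the mutants against 8.38 and 69.0 in the controls. Control replicate 1 was the only array not well above background, and control replicate 2 was about as bright as the mutants. The second Mmp9 probe, at 40.1 and 58.4 in the mutants against 6.03 and 51.2 in the controls, showed the same low control. The Mmp9 difference was 1.20 ± 1.0 with the first probe (limma adjusted p = 0.721) and 1.65 with the second. With the first probe it was -0.32 without control replicate 1. It was 0.55 with that array raised to the lowest signal called well above background, and 0.76 with the second probe.

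Of the receptors, Cxcr2 was dim and Csf3r was read by a probe with repeated sequence. Cxcr2 gave 17.8 and 38.2 in the mutants against 7.79 and 14.6 in the controls and was well above background on mutant replicate 2 alone. Its mutant mean lay 1.42-fold higher by the same measure, which again rests on mutant replicate 2 and is no strict lower limit. Csf3r gave 12685 and 10826 in the mutants against 14904 and 12222 in the controls. Its groups overlapped, and the difference was -0.01 ± 0.13 (limma adjusted p = 0.976), or -0.23 after quantile normalization and 0.13 without control replicate 1. The Csf3r probe (chromosome 4, 125721478 to 125721537, mm9, plus strand) holds repeated sequence. At least 16 bases in a row of it occur, on either strand, in the 300 bases around the start of 21 other genes and, on the probe's strand, in 7 probes of other genes. The other 11 probes matched the starts of at most 3 other genes. The stretch of the Csf3r probe found most often is shown with those of Itgam and Trem1, neutrophil surface genes whose brightest probes have the same feature, in capitals where bases lie in such a run.
Csf3r: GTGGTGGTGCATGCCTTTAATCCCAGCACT
Itgam: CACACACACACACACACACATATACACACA
Trem1: GTTGTTGTTGTTGTTGTTGTTGTTGTTGTT
The Csf3r stretch resembles the B1 family of short interspersed repeats, and the others are simple repeats. Itgam encodes the integrin chain CD11b, and its repeat-bearing probe, found at 166 other starts, gave 3885 and 4003 in the mutants against 4313 and 3752 in the controls. The other Itgam probe stayed near background on every array, at 4.61 and 4.51 in the mutants against 12.7 and 7.75 in the controls. Trem1, an activating receptor picked after its values were seen, gave 476 and 440 in the mutants against 618 and 448 in the controls with the probe found at 28 other starts. Its other probe, at 11.1 and 22.6 in the mutants against 5.31 and 8.18 in the controls, was well above background on mutant replicate 2 alone, as Mmp8 and Cxcr2 were. How much of the signal of these probes came from other transcripts was not tested.

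**Figure D2:**
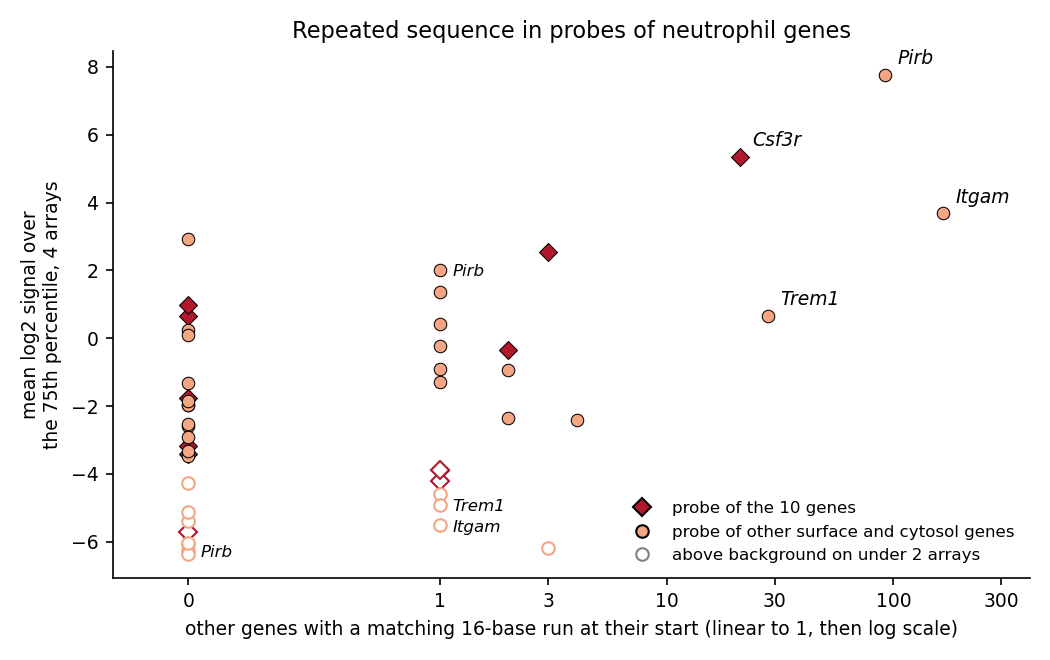
Each point is a probe of the 10 genes (diamonds) or of 23 other neutrophil surface and cytosol genes (circles), with the number of other genes that share a run of 16 bases within 300 bases around their start on the x axis (linear to 1, then a log scale) and the mean log2 signal of the 4 arrays over the 75th percentile on the y axis; open symbols were well above background on under 2 arrays. Csf3r (21 other genes), Trem1 (28), Pirb (92) and Itgam (166) stand to the right of all other probes plotted, and the other probes of Itgam and Trem1 are open symbols; the level depends on the probe as well as on the transcript.

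Read against the array as a whole, 0 of the 7 genes tested passed a Benjamini-Hochberg adjusted p under 0.05 with limma, as did 0% of the 19325 genes, the lowest adjusted p being 0.373. Taken without adjustment, 3 of the 7 and 1796 genes (9.29%) had p under 0.05. S100a8, S100a9 and Ltf were at least 2-fold higher at an unadjusted p under 0.05, as were 0.719% of all genes tested, and 0.642% were lower by as much. The same 3 genes had both mutants above both controls, as did 25.7% of all genes, while none of the 7 and 17.6% of all genes had both mutants below both controls. The median difference of the 7 was 1.45, against 0.0217 over all genes. The count of 3 rested on particular mice. It was 1 (Ltf) without mutant replicate 2, 1 (Ltf) without control replicate 1, 4 with Lcn2 added without mutant replicate 1, and 5 with Lcn2 and Mmp9 added without control replicate 2. It was also 1 (Ltf) when the intensity trend in the spread was not modelled, and 2, without S100a9, after quantile normalization, with no filter on dim probes, or with the mean of a gene's probes.

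**Figure D3:**
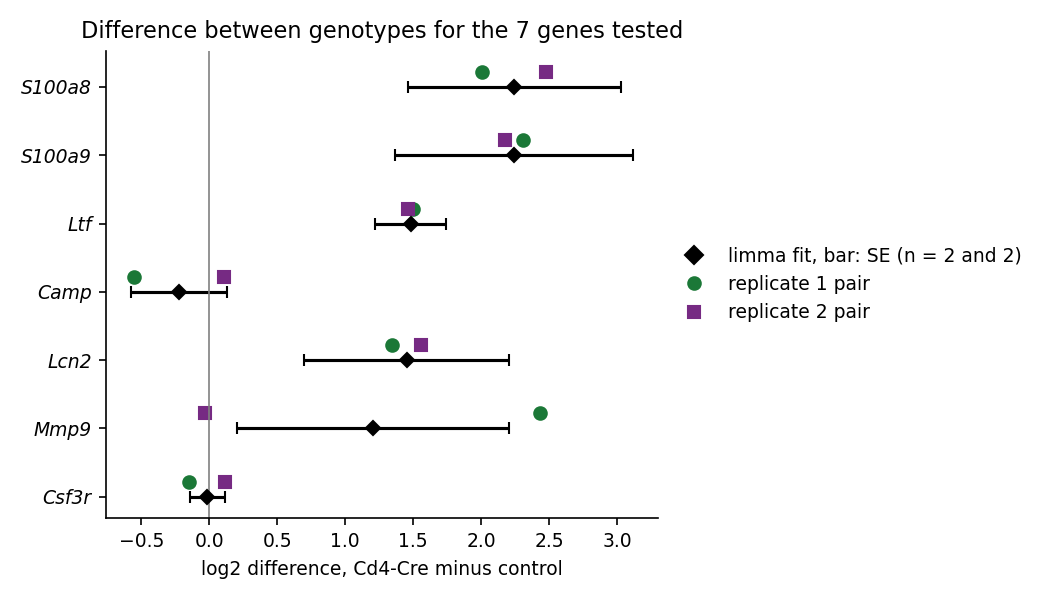
Log2 difference, mutant (Cd4-Cre) minus control, of the 7 genes that passed the filter: black diamonds and bars give the limma estimate and its SE (2 arrays in each group), green circles the difference within replicate 1 (female) and purple squares that within replicate 2 (male). The pair values of S100a8, S100a9, Ltf and Lcn2 lie close together, between 1.35 and 2.48, while those of Mmp9 are 2.44 and -0.03.

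Within each sex the genotype difference of 4 genes was nearly the same. S100a8 differed by 2.01 between the females and 2.48 between the males, S100a9 by 2.31 and 2.18, Ltf by 1.5 and 1.46, and Lcn2 by 1.35 and 1.56. The other 3 differed in sign between the pairs, Camp with -0.55 and 0.11, Csf3r with -0.15 and 0.12, and Mmp9 with 2.44 and -0.03. The second Mmp9 probe had 2.82 and 0.48, both positive. With the replicate number, and so sex, as a block in limma, S100a9 (adjusted p = 0.0236), S100a8 (0.0409), Ltf (0.046) and Lcn2 (0.046) passed and were higher in the mutants. They were 4 of the 46 genes (0.238%) that passed in that fit, 35 of them higher (0.181%). This fit has 1 residual degree of freedom from 4 mice, against 2 without the block, and the labels do not say that same-numbered mice were matched in any other way.

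The difference between the mice of one genotype was of the same order as that between genotypes. S100a8 was 3.94-fold higher in the male than in the female mutant and 2.83-fold higher in the male than in the female control, and S100a9 was 3.75-fold and 4.10-fold higher. For Lcn2 these folds were 3.45 and 2.98. Only 0.657% of all genes tested were at least 2-fold higher in replicate 2 in both genotypes. Ltf went the other way, with the male at 0.693 of the female level in the mutants and 0.711 in the controls. With 1 mouse of each sex and genotype, sex, replicate number and the state of the single mouse cannot be told apart. S100a8, S100a9 and Lcn2 were highest on mutant replicate 2 and lowest on control replicate 1, as were 16% of all genes. Ltf was highest on mutant replicate 1 and lowest on control replicate 2.

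**Figure D4:**
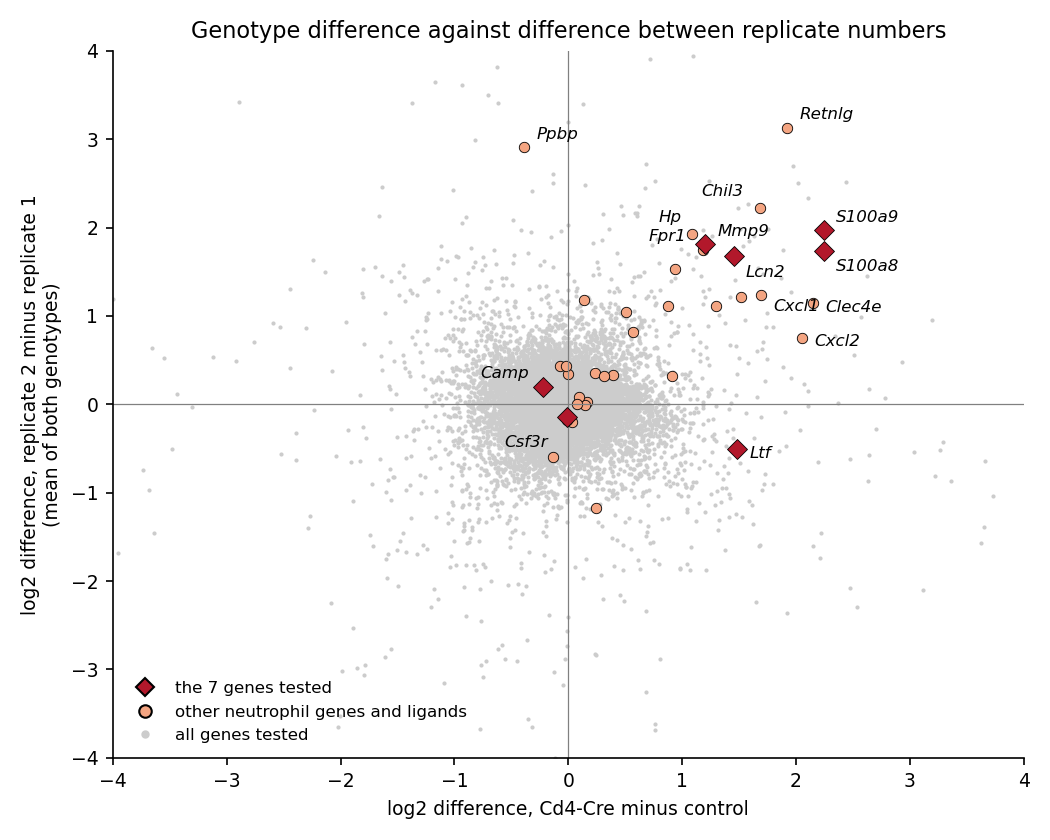
Log2 difference, mutant (Cd4-Cre) minus control (x axis), against log2 difference, replicate 2 minus replicate 1, averaged over both genotypes (y axis), for the 7 genes tested (diamonds), other neutrophil genes and ligands (circles) and all 19325 genes (grey; 31 lie beyond the axes). S100a8, S100a9, Lcn2 and Mmp9 lie in the upper right with Retnlg and Chil3, Ltf lies in the lower right, and Csf3r and Camp lie near 0 on both axes.

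Most ligands of the 2 receptors also had higher signals in the mutants. Of 6 ligand genes, 5 were tested, and 4 had both mutants above both controls, as did 25.7% of all genes tested. Cxcl2 and Cxcl1 were at least 2-fold higher at an unadjusted p under 0.05, as were 0.719% of all genes. Cxcl2 and Cxcl3 passed the filter through the mutant arrays alone. Their order of arrays and the Cxcl2 call therefore rest on control values not well above background. Cxcl1, a main attractant of neutrophils through CXCR2, gave 336 and 805 in the mutants against 129 and 260.0 in the controls, with the order of arrays of S100a8. Its difference was 1.69 ± 0.57 (limma adjusted p = 0.489, and 0.0474 with the block). Cxcl2, a second attractant, gave 37.5 and 50.4 in the mutants against 8.87 and 16.05 in the controls, and was well above background in the mutants only. By the measure used for Mmp8, which is no strict lower limit, Cxcl2 was 2.37-fold higher there. Cxcl3, 21.9 and 31.6 in the mutants against 7.29 and 20.4 in the controls, was likewise well above background in the mutants only (1.43-fold by that measure). Cxcl5, a chemokine of epithelial cells, differed by 0.91 ± 0.24 (limma adjusted p = 0.428). Csf3, the ligand of CSF3R, gave 8.18 and 31.3 in the mutants against 4.24 and 4.27 in the controls and was well above background on mutant replicate 2 only.

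Other neutrophil genes mostly had positive differences of smaller size. Of 23 surface and cytosol genes, 19 were tested and 16 had a positive difference, as did 53.4% of all genes tested. Some of the 16 lay near 0, such as Itgb2 at 0.0007 and Siglece at 0.08. Itgam, Pirb and Trem1 were read here by their probes with repeated sequence. The median was 0.31. At an unadjusted p under 0.05, 2 of the 19 were at least 2-fold higher, as were 0.719% of all genes. Those 2 were Clec4e, a C-type lectin that senses dead cells and mycobacterial lipid, and Fpr2, a formyl peptide receptor. Clec4e gave 107 and 225 in the mutants against 28.2 and 56.0 in the controls, a difference of 2.15 ± 0.54 (limma adjusted p = 0.418, and 0.046 with the block). Fpr2 differed by 1.51 ± 0.57 (limma adjusted p = 0.526). Retnlg, a resistin-like protein of mature neutrophils, gave 63.8 and 387 in the mutants against 14.3 and 156 in the controls, so its groups overlapped (1.92 ± 1.40, limma adjusted p = 0.686). Control replicate 1 was not well above background for Retnlg, and the difference was 1.65 with that array at the floor. In 11 of the 19 genes mutant replicate 2 was highest and control replicate 1 lowest, an order found in 16% of all genes.

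Ly6g, whose product marks mouse neutrophils in flow cytometry, gave 3013 and 1483 in the mutants against 3034 and 2311 in the controls, a difference of -0.14 ± 0.30 (limma adjusted p = 0.905), with replicate 2 the lower in each genotype. Its probe shares a run of at least 16 bases with a probe of 1 other gene name. Of 5 primary granule genes, which are transcribed in marrow precursors, 4 had no array well above background, among them Mpo, myeloperoxidase. The fifth, Elane, neutrophil elastase, gave 66.5 and 65.6 in the mutants against 89.1 and 65.0 in the controls (-0.01 ± 0.24, limma adjusted p = 0.987). Of 8 other granule genes, 6 were tested and 5 had a positive difference, as did 53.4% of all genes tested. None of the 6 passed at 2-fold and an unadjusted p under 0.05, and the median was 0.19. All 6 genes of the phagocyte oxidase were tested, with a median of 0.04.

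The relatives and regulators of the 10 genes were read in the same way, beside the 53.4% of all genes tested with a positive difference. Among 12 other S100 genes, 10 were tested, 3 had a positive difference and 7 a negative one, and the median was -0.14. S100a6 was at -0.15 ± 0.10 and S100a4 at -0.25 ± 0.22 (limma adjusted p = 0.664 and 0.732). Among 12 other metalloproteinases and their inhibitors, 8 were positive and 4 negative, and the median was 0.45. Timp1, an inhibitor of MMP9, gave 929 and 1479 in the mutants against 603 and 1227 in the controls, a difference of 0.64 ± 0.44 (limma adjusted p = 0.672). Timp4 was well above background in the controls only and passed the filter through them alone. Its p (limma adjusted p = 0.477) therefore rests on mutant values not well above background. By the measure used for Mmp8, which is no strict lower limit, Timp4 was 4.12-fold higher in the controls. On the normalised scale it was at -4.31 and -5.81 in the mutants against -3.39 and -0.90 in the controls, so the controls lay far apart. Of 6 granulocyte transcription factors, 5 were tested and all 5 were positive, Gfi1 only at 0.0003, with a median of 0.31. Cebpb, a C/EBP factor used when granulocytes are made in haste, differed by 0.63 ± 0.28 (limma adjusted p = 0.565). Cebpe, which drives the secondary granule genes, gave 13.4 and 18.5 in the mutants against 4.15 and 50.9 in the controls, and control replicate 2 was the brightest.

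Cell types that also make some of these proteins were read from their markers, and their part in the differences was not tested. Over all genes tested, 53.4% had a positive difference. Macrophage and monocyte markers were negative in 10 of 11 genes, with a median of -0.14 and a summed level, in units of the array's 75th percentile, of 21.0 and 26.9 in the mutants against 20.5 and 31.4 in the controls. Adgre1, the macrophage antigen F4/80, differed by -0.16 ± 0.33. Siglecf, of eosinophils, differed by -0.33 ± 0.38. The sum of 9 colon epithelium markers was 1065 and 1143 in the mutants against 1077 and 1088 in the controls, and Epcam differed by 0.12 ± 0.11. The squamous keratin Krt5 had no array well above background. Krt14 gave 62.5 and 65.3 in the mutants against 91.4 and 94.9 in the controls, and of 7 squamous markers tested 5 were positive and 2 negative, with a median of 0.32 and a sum of 8.38 and 9.05 in the mutants against 8.19 and 6.67 in the controls. All 7 epithelial defence genes were positive, as were 53.4% of all genes tested, with a median of 0.28. Reg3g, a lectin that kills bacteria, gave 72995 and 49068 in the mutants against 14352 and 8295 in the controls, a difference of 2.64 ± 0.29 (limma adjusted p = 0.373, and 0.0236 with the block), and its partner Reg3b differed by 1.45 ± 0.28 (limma adjusted p = 0.418). Saa3, a serum amyloid of macrophages and epithelium, gave 7033 and 20480 in the mutants against 3143 and 11419 in the controls, highest on mutant replicate 2 and lowest on control replicate 1.

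Red cell genes, read for blood in the tissue, had negative differences where calprotectin had positive ones, and the part of blood in the neutrophil genes was not tested. Hba-a1, an alpha globin gene, gave 2528 and 4696 in the mutants against 6975 and 12373 in the controls (-1.24 ± 0.44, limma adjusted p = 0.513, and 0.046 with the block). Hbb-b1, a beta globin gene, differed by -1.61 ± 0.51 (limma adjusted p = 0.473). The summed level of the 3 red cell genes tested was 8.24 and 17.8 in the mutants against 21.6 and 38.4 in the controls, so it too was higher in replicate 2 of each genotype. Of 2 platelet genes tested, Pf4 differed by -0.32 ± 0.47 and Gp1bb, chosen after its value was seen, by 0.47 ± 0.32.

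Markers of muscle and lymphocytes had negative differences, and none passed adjustment in limma with or without the block. Over all genes tested, 53.4% had a positive difference. All 4 smooth muscle markers had both mutants below both controls, as did 17.6% of all genes. All 4 also had an unadjusted p under 0.05, as did 9.29% of all genes in either direction. Their median was -0.63, and their sum was 89.0 and 89.7 in the mutants against 127 and 145 in the controls. All 7 T cell markers were negative, 4 of them at an unadjusted p under 0.05, as were 9.29% of all genes in either direction. Among these 4 was Cd8a, which passed the filter through the controls alone. Its p rests on mutant values not well above background. The T cell median was -0.48, and the sum was 3.84 and 3.99 in the mutants against 5.58 and 4.90 in the controls. All 4 B cell markers were negative, 1 of them at an unadjusted p under 0.05. Their median was -0.21, and their sum was 7.64 and 6.29 in the mutants against 8.42 and 8.24 in the controls. The part of these cells in the neutrophil genes was not tested. The T cell gene Cd3e differed by -0.32 ± 0.16. Cd8a, a marker of cytotoxic T cells, was well above background in the controls only. By the measure used for Mmp8, which is no strict lower limit, Cd8a was 2.71-fold higher there.

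The genes nearest to S100a8 were found by the Euclidean distance between log2 profiles over the 4 arrays, each centred on its own mean. S100a9 lay at 0.38 and Lcn2 at 0.80, while Mmp9, Ltf, Camp and Csf3r lay at 1.80, 2.39, 2.91 and 2.95. The 5 nearest genes with a symbol outside the 10 were Il6 (0.56), an inflammatory cytokine, Cemip (0.59), a protein needed to break down hyaluronan, Clec4e (0.61), Mmp13 (0.62), collagenase 3, and F10 (0.69), coagulation factor X. Il6 differed by 1.95 ± 0.59, Cemip by 1.76 ± 0.89, Mmp13 by 1.67 ± 0.71 and F10 by 1.71 ± 0.67, none with an adjusted p under 0.453 in limma without the block. With the block Cemip (adjusted p = 0.0419), F10 (0.0474) and Clec4e passed in limma, and Il6 (0.0502) and Mmp13 (0.0704) did not. Distance over 4 arrays is a description, and genes with large differences of this shape were picked by construction.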

How the data were processed

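RNA of 4 whole colons was labelled with Cy3, 1 array each. The deposited spot intensity values are scanner output of Agilent Feature Extraction (11.5.1.1 in the submitters' processing notes), background-corrected per the file headers. Deposited flags mark spots well above background, saturated (0) and outlying. Gene names and mm9 coordinates are those of the files, and promoter windows those of RefSeq (GRCm38.p6).

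Each array's 75th percentile was subtracted on the log2 scale, spots of a probe without outlier flags were averaged, probes needed 2 of 4 arrays well above background, and the brightest represented its gene. Differences were fitted with limma 3.58.1 in R 4.3.3 (intensity trend, no block, two-sided, Benjamini-Hochberg over 19325 genes). The p-values rest on 2 mice per genotype, and the number of arrays limits precision. The self-test ran on simulated arrays.

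The 10 genes, the 21 other lists and the rule for names were chosen with earlier results of these data known. The rule named the 10 genes, a fixed set of markers, up to 3 genes of a list by smallest p among those 2-fold different at an unadjusted p under 0.05, and the 5 nearest profiles. Alternatives were normexp, quantile normalization, other filters and probe rules, no trend, a replicate block and leaving out each array. Same-numbered arrays deviated together with r = 0.239 across genes, in 2 pairs, and the block is reported because the number coincides with sex.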

Additional observations from a re-analysis of the deposited data

Results flagged for a closer look

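Within-sex differences of opposite sign were found for 8 of the named genes tested, and for none of them was the difference between the pairs tested. The share of all genes with such a change of sign was not computed. A gene with a fitted difference near 0, such as Csf3r or Elane (-0.01 each), changes sign between pairs with a small spread. In log2 units, the female minus the male genotype difference was 2.47 for Mmp9, -0.66 for Camp and -0.26 for Csf3r. For the other named genes it was 2.94 for Cebpe, -0.64 for Elane, 0.52 for Adgre1, -0.45 for Itgam and 0.42 for Ly6g. The Csf3r and Itgam values come from probes with repeated sequence, and the other Itgam probe was well above background on no array. Control replicate 1 was not well above background for Mmp9 or Cebpe, nor was mutant replicate 1 for Cebpe. The Mmp9 value is that of the first probe. The second Mmp9 probe had 2.82 between the females and 0.48 between the males, with no change of sign.

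Signal also appeared in probes that the comparison did not use. On mutant replicate 2 Mmp8 reached 94.2 and Cxcr2 38.2, both well above background there and on no other array.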

How the results depend on the processing

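Lcn2, Ltf, S100a8 and S100a9 kept their direction under all 13 alternatives run for each, but most of these could not turn it. The filters, the trend, the block and the floor leave their estimates unchanged, as do the probe rules for a gene with 1 probe. Leaving out an array cannot turn Ltf, S100a8 or S100a9, whose mutants both lie above both controls, and Lcn2 gave 0.56 to 2.34. Normexp and quantile normalization gave 1.28 and 1.45 for Lcn2 and 1.18 and 1.49 for Ltf. They gave 2.01 and 2.24 for S100a8 and 2.10 and 2.20 for S100a9. With all 4 arrays, the 4 genes passed the adjusted threshold only under the replicate block. Under the replicate block the members called at the adjusted threshold were 4 in place of 0, and all genes past it were 46 in place of 0. Genes of related lists past 2-fold and an unadjusted p were 13 in place of 5 under the block. Over all genes that looser rule gave 383 in place of 263 under the block, and 239 without the intensity trend. The 2-fold count of 3 members was 1 without the intensity trend and 1 to 5 with an array left out. With no filter on dim probes the count with groups apart was 5, but Cxcr2 and Mmp8, which it adds, were well above background on mutant replicate 2 alone, so their other arrays have no order. Related lists gave 3 with normexp, 3 with probes well above background on all 4 arrays, 3 with no trend, and 2 to 15 with an array left out. Over all genes the 2-fold count of 263 was 85 with normexp, 571 with no filter, 156 with the filter on all 4 arrays and 340.0 to 500.0 with an array left out. Normexp shrinks differences of dim probes by construction, and a stricter filter tests fewer genes. Camp turned to 0.077 with normexp and 0.041 without mutant replicate 1 (-0.49 at the lowest). Csf3r turned to 0.13 and Mmp9, read by its first probe, to -0.32 without control replicate 1 (Csf3r -0.16 and Mmp9 2.73 without control replicate 2). The cause was not tested. The median of the members lay between 0.66 and 2.24 with an array left out. Chosen after seeing the data, it was 1.47 without Csf3r and 1.45 with dim arrays at the floor. Camp and Mmp9 had too few arrays well above background for the strictest filter.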
